A study of Mus musculus with 2 samples.

Results

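Transcripts of 9 cell adhesion and migration genes were followed in sorted foetal germ cells over both sexes and the culture times and inhibitors of these RNA-seq libraries. The 9 genes were picked by name, as Cdh1, Cdh2, Epcam, Cldn6, Cldn7, Pecam1, Itga6, Itgb1 and Cxcr4, and each matched 1 of the 42422 genes in the count table. Germ cells came from E12.5 mouse gonads of the cross labelled ASMU Swiss by Oct4(Pou5fl)-eGFP on a 129svJT2 background, of WT genotype, in which the Oct4-eGFP reporter marks the germ cells, and every group carried that reporter. Cells were collected at once from XX and XY gonads (0 h), or after culture of the gonad with its mesonephros in the vehicle DMSO for 24 h or 72 h (XX and XY), or, for XY gonads alone, in 500 nM of the FGF receptor inhibitor BGJ398 (FGFRi) or 500 nM of the MEK1/2 inhibitor PD0325901 (MEKi) for 24 h or 72 h. Each of the 10 groups had 4 libraries, 40 in all. Several gonads were pooled for each library, the mesonephros was removed before sorting by the reporter, and inhibitor reached the whole organ and not germ cells alone. The libraries were made in 2 pools of 20, and the pool with the 0 h groups, both 24 h DMSO groups and 24 h MEKi is called pool 1, so that any comparison of 72 h with 0 h or 24 h other than that within XY FGFRi, and of 24 h FGFRi with 24 h DMSO, is also a comparison of pools, and time or drug and pool cannot be told apart there.

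Germ cells reach the gonad as migrating primordial germ cells, guided by the chemokine CXCL12 through its receptor CXCR4, and on arrival they gather into clusters. Cadherins such as E-cadherin (Cdh1) and N-cadherin (Cdh2) join like cells to each other through calcium, EPCAM and claudins act at epithelial contacts, PECAM1 is an immunoglobulin adhesion molecule that marks endothelium as well as early germ cells and pluripotent cells, and integrins such as α6β1 (Itga6 and Itgb1) bind laminin in basement membranes. In the foetal ovary germ cells then enter meiosis, whereas in the testis they are enclosed by Sertoli cells in cords and stop dividing.

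Levels are given as CPM (counts of a gene per 1000000 counts of its library), after TMM scaling of library sizes. Counts were of molecules primed at the poly(A) tail and were not divided by transcript length, so levels are compared between groups and not between genes. The 40 libraries held 1178953 to 5199153 counts each. The sum of 4 Y-linked genes was 128.3 to 228.9 CPM in XY and 0.836 to 19.3 CPM in XX libraries. The pools shared 16 sample indexes, and the 4 XX 24 h DMSO libraries each had the index of an XY 72 h FGFRi library. They held 88 Y-linked counts against 2097 in those partners, or 4.20%. The XX 0 h libraries, whose index partners were XX, held 21, so not all of the 88 need come from a shared index. All 6 germ cell markers (Ddx4, Dazl, Pou5f1, Dppa3, Dnd1 and Mael) were present in every group, at a summed 2089 to 5640 CPM per library. Sums over markers of other cells were 11.4 to 84.7 CPM for 10 endothelial markers, 7.98 to 95.4 CPM for 8 supporting cell markers, 28.6 to 295 CPM for 8 interstitial and steroidogenic markers, 2.68 to 50.3 CPM for 6 markers of mesonephric epithelium and 13.3 to 538.2 CPM for 8 blood markers. These are bulk samples, so fewer cells with a transcript and less of it per cell cannot be told apart.

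Of the 9 genes, 8 passed the filter on low counts and were tested with 15252 genes in all, and Cxcr4 did not pass. A gene was called when its fold change was over 1.5 by treat in limma at a false discovery rate (FDR) under 0.05. With 4.20% of the counts of its partner taken out of each pool 1 library that shared an index, no call among the 8 genes was lost and 1 was gained, for Itga6 in XY at 72 h against 0 h (log2 1.06, FDR = 0.0256). Without culture, 1 of the 8 was called between XY and XX germ cells, where 3.0% of all tested genes were called, and the XY and XX libraries of 4 did not overlap (21.4% of all genes). After 24 h in DMSO 2 were called between the sexes, against 9.99% of all genes, and 7 did not overlap (33.2%). At 24 h edgeR glmTreat called 4, with Cldn6 and Cldn7 added, and limma treat called 4 without XX 24 h replicate 4, with Itga6 and Cldn7 added. Of all 15252 genes these fits called 2360 and 1303. At 72 h, when 41.0% of all genes were called between the sexes, 0 of the 8 were called by limma treat, 0 had an unadjusted p under 0.05, and 0 were called by edgeR glmTreat or by DESeq2 at the same fold. With no fold threshold 5 of the 8 passed at 72 h in limma, against 67.4% of all genes, and 3 did not overlap (58.5%).

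In XX germ cells 2 of 8 were called at 24 h against 0 h (3.23% of all genes), 7 of 8 at 72 h against 0 h (37.2%), and 4 of 8 at 72 h against 24 h (22.2%). In these comparisons 5, 8 and 5 of the 8 had groups that did not overlap, as did 27.7%, 55.6% and 45.3% of all genes. In XY germ cells the counts were 1 of 8 at 24 h against 0 h (2.94%), 4 of 8 at 72 h against 0 h (35.5%) and 3 of 8 at 72 h against 24 h (27.3%), with 5, 7 and 5 of 8 that did not overlap (20.9%, 55.6% and 48.5% of all genes). The only time comparison inside a pool with 72 h libraries was XY FGFRi at 72 h against XY FGFRi at 24 h, chosen after the data were seen, and it called 4 of 8 against 33.5% of all genes, with 6 that did not overlap (55.9%). The plot of CPM by library shows these levels for all 9 genes.

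**Figure D1:**
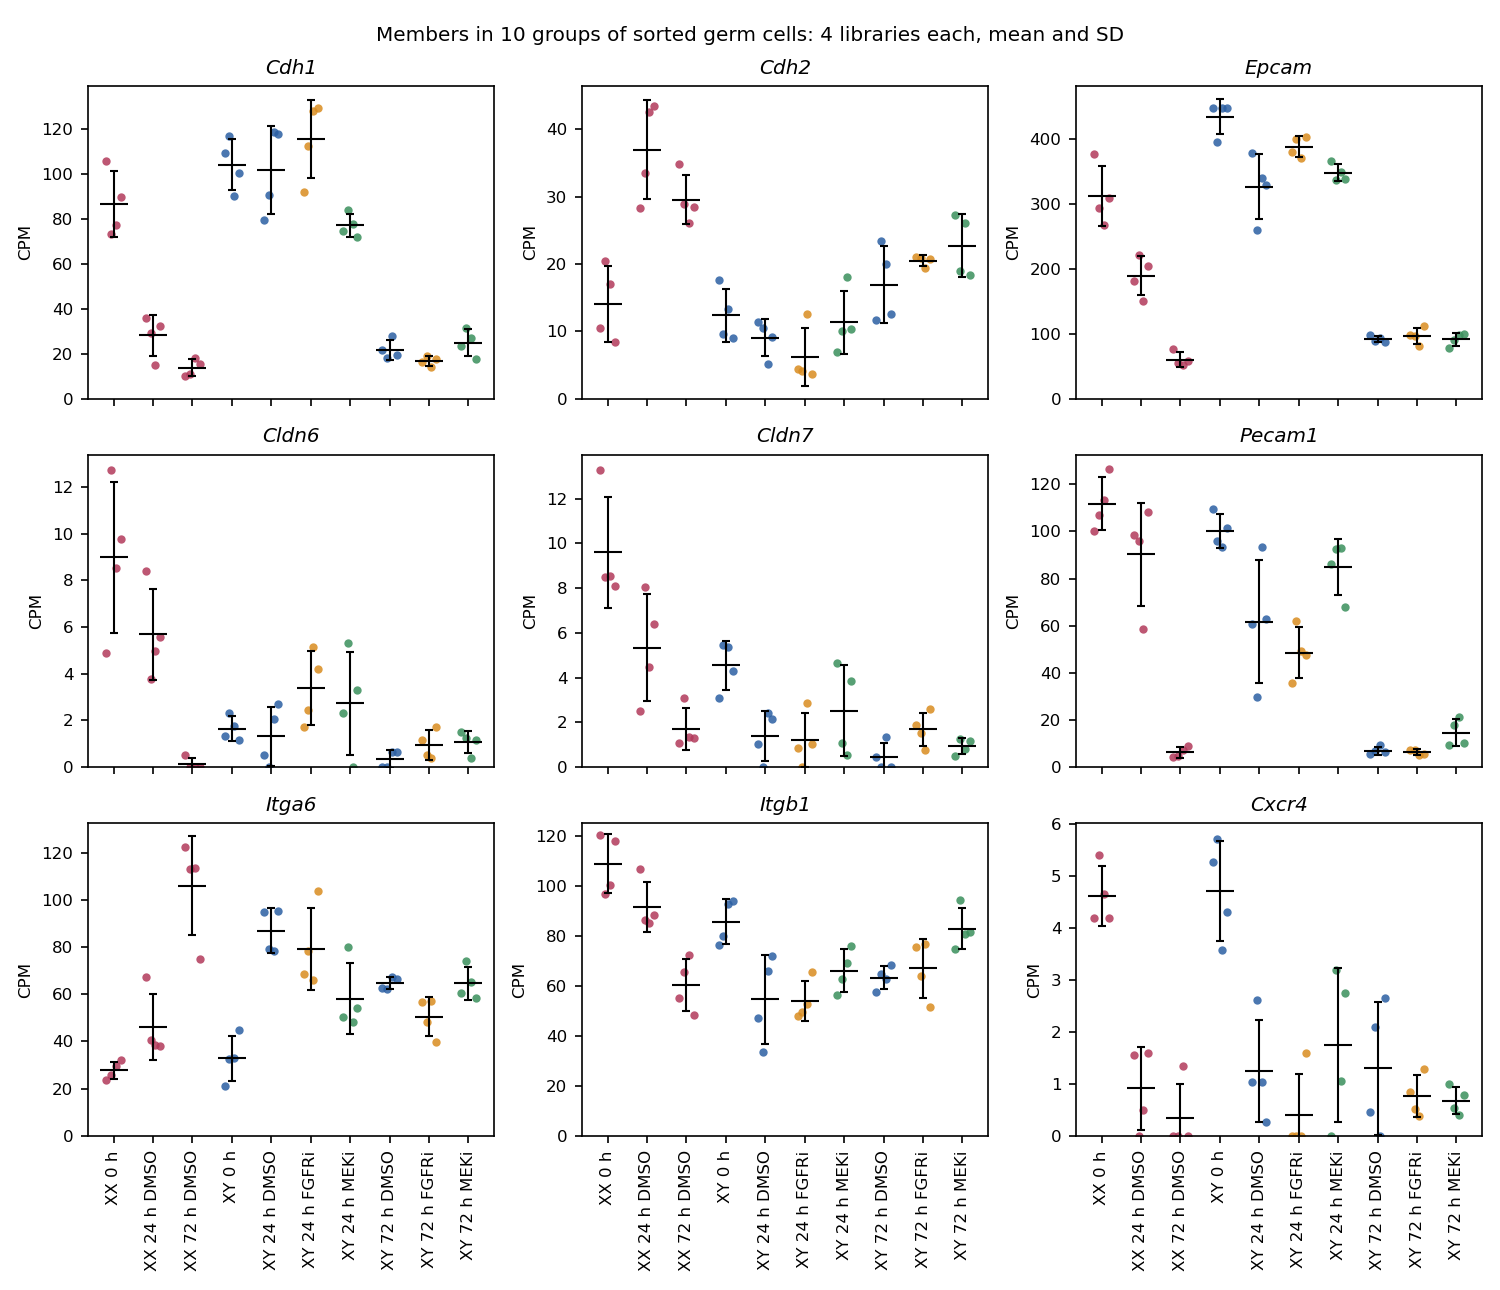
CPM (linear axis) of each of the 9 genes in the 40 libraries, by group; points are libraries, black marks the mean and SD of 4, and colour gives XX (red), XY without inhibitor (blue), FGFRi (orange) and MEKi (green). Cdh1, Epcam and Pecam1 are low in all 72 h groups, Cdh2 is highest in XX cultures, and Cldn6, Cldn7 and Cxcr4 do not exceed 13.3 CPM.

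Cdh1 and Cdh2 went in opposite directions in XX germ cells within 24 h. Cdh1 (chromosome 8, 107329941 to 107396880, plus strand, GRCm39), the epithelial cadherin that clusters primordial germ cells, was at 105.6, 73.0, 77.2 and 89.5 CPM in the 4 XX 0 h libraries. In XX 24 h DMSO it was at 35.8, 29.3, 14.9 and 32.3 CPM. All 4 cultured libraries lay below all 4 uncultured ones, and Cdh1 fell 2.85-fold (log2 fold change -1.51, SE 0.18, FDR = 0.000232). Cdh2 (chromosome 18, 16700793 to 16942381, minus strand), which many mesenchymal and gonadal cells carry, was at 10.49, 20.5, 17.1 and 8.36 CPM in XX 0 h. It was at 28.3, 33.6, 42.6 and 43.5 CPM in XX 24 h DMSO, again without overlap, and rose 2.75-fold (log2 1.46, SE 0.23, FDR = 0.0119). The Cdh2 call was lost without XX 0 h replicate 5 (log2 1.06, FDR = 0.353) and without XX 24 h replicate 9 (log2 1.34, FDR = 0.0683). It was also lost with no filter on low counts (log2 1.23, FDR = 0.211) and by DESeq2 at the same fold (log2 1.37, FDR = 0.0729). The Cdh1 call was not lost when any library was left out. Summed markers of supporting cells, which express Cdh2 in the gonad, were 12.3 to 25.9 CPM in XX 0 h and 7.98 to 16.2 CPM in XX 24 h. Their part in the Cdh2 result was not tested. Markers of mesonephric epithelium summed to 40.3 to 49.9 CPM in XX 0 h and 11.2 to 24.6 CPM in XX 24 h, and their part in the Cdh1 result was not tested.

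In XY germ cells neither cadherin was called over the same 24 h. The 4 XY 0 h libraries had 109.2, 116.5, 90 and 100.3 CPM, and the 4 XY 24 h DMSO libraries had 79.3, 90.6, 118.3 and 117.7 CPM. These ranges overlap, and the log2 difference of -0.04 had a 95% interval of -0.30 to 0.23. Cdh2 was at 17.6, 9.60, 13.4 and 9.01 CPM in XY 0 h and at 11.4, 10.4, 5.16 and 9.20 CPM in XY 24 h DMSO. Its log2 difference was -0.33 (95% interval -0.97 to 0.31). At 24 h the sexes were therefore apart for both cadherins, with Cdh1 3.53-fold higher in XY (log2 1.82, SE 0.18, FDR = 2.97e-07) and Cdh2 4.07-fold lower in XY (log2 -2.03, SE 0.28, FDR = 7.52e-05). The groups did not overlap for either gene.

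The sex difference itself changed over those 24 h for Cdh1. It was 0.35 on the log2 scale at 0 h (SE 0.13, 95% interval 0.09 to 0.61), where the XX and XY libraries overlapped, and the difference at 24 h less that at 0 h was 1.47 (SE 0.22, FDR = 0.0264), when 0.452% of all genes were called. That call was lost when XX 0 h replicate 5, XY 0 h replicate 5, XX 24 h replicate 5, XX 24 h replicate 6, XY 24 h replicate 4 or XY 24 h replicate 5 was left out, with values of 1.27 to 1.46 and FDR of 0.0509 to 0.22 over those 6. It was also lost with no filter on low counts (1.38, FDR = 0.179) and with scaling by library size alone (1.45, FDR = 0.0626). For Cdh2 the same interaction was -1.79 (SE 0.39, FDR = 0.147) and was not called. edgeR glmTreat called it at FDR = 0.0309. The plot of cadherin CPM over culture time shows both courses.

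**Figure D2:**
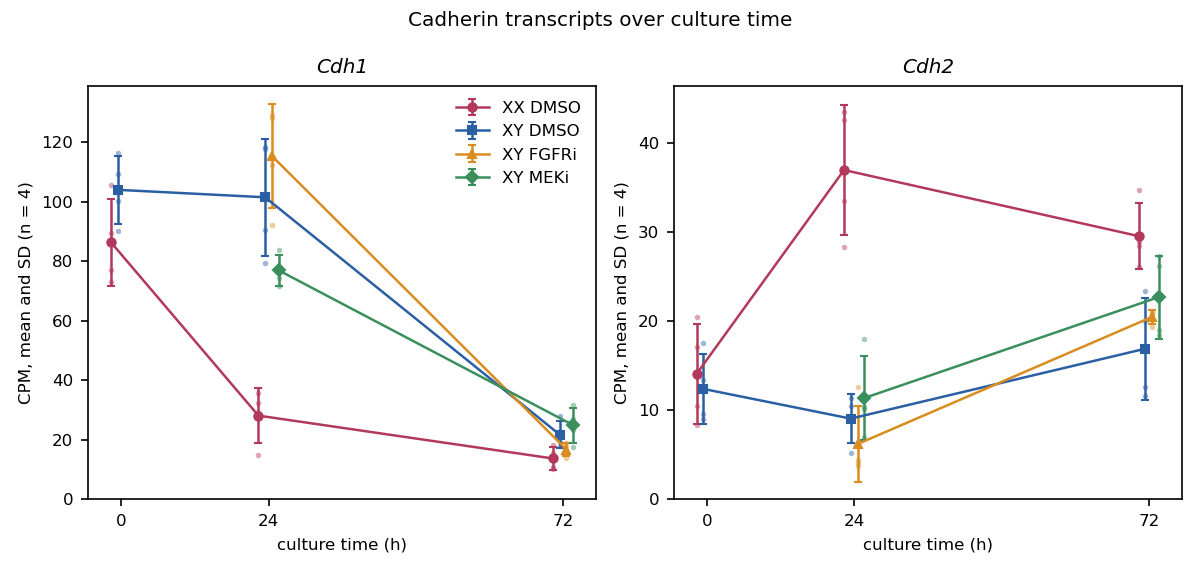
Cdh1 (left) and Cdh2 (right) in CPM (linear axis) against culture time in hours, mean and SD of 4 libraries, with single libraries as pale points, for XX DMSO (red circles), XY DMSO (blue squares), XY FGFRi (orange triangles) and XY MEKi (green diamonds); points are shifted sideways to be seen, and the 0 h points had no culture. At 24 h XX germ cells have a mean Cdh1 of 28.1 and Cdh2 of 37.0 CPM, and XY DMSO germ cells 101.5 and 9.05 CPM.

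By 72 h Cdh1 was low in both sexes. XX 72 h DMSO libraries had 10.2, 10.8, 18.1 and 15.5 CPM and XY 72 h DMSO libraries had 21.5, 17.97, 28.0 and 19.2 CPM. The sexes overlapped in a narrow stretch, with XY 1.65-fold higher (log2 0.72, SE 0.29, FDR = 0.532). Against 0 h Cdh1 fell 6.43-fold in XX (log2 -2.68, SE 0.25, FDR = 2.85e-10) and 4.95-fold in XY (log2 -2.31, SE 0.19, FDR = 3.69e-11). In XY the fall came between 24 h and 72 h (4.82-fold, FDR = 2.07e-10), and within pool 2 the FGFRi libraries went from 92.0, 112.4, 128.0 and 129.2 CPM at 24 h to 16.1, 18.9, 13.9 and 17.7 CPM at 72 h, a 6.87-fold fall (FDR = 1.21e-15). Cdh2 at 72 h was at 34.8, 28.9, 26.1 and 28.5 CPM in XX and at 11.6, 23.4, 20.0 and 12.6 CPM in XY. No XY library reached the lowest XX library, but the difference of -0.89 on the log2 scale (SE 0.26, FDR = 0.243) was not called. Within pool 2 Cdh2 rose 3.53-fold in XY FGFRi from 24 h to 72 h (means 6.18 and 20.5 CPM, FDR = 0.00481), without overlap. That call was kept in 18 of 19 other settings. In XY DMSO Cdh2 was 1.84-fold higher at 72 h than at 24 h, without overlap and not called (FDR = 0.420, with no fold threshold 0.0132). In XX Cdh2 stood 2.30-fold above 0 h (FDR = 0.0240), a call that was lost without XX 0 h replicate 5 (log2 0.81, FDR = 0.382) or XX 72 h replicate 11 (log2 1.11, FDR = 0.0827), with no filter on low counts (log2 0.93, FDR = 0.321) and by DESeq2 at the same fold (FDR = 0.0891). Supporting cell markers summed to 42.3 to 74.9 CPM in XX 72 h DMSO and 26.8 to 37.6 CPM in XY 72 h DMSO, higher in the same direction as Cdh2, and their part in its level was not tested. In order of mean level, Cdh1 was split into 5 groups from 76.9 to 115.4 CPM and 5 groups from 13.7 to 28.1 CPM, with overlap between neighbours inside each set and none between the sets. For Cdh2 each group overlapped the next from 37.0 CPM in XX 24 h DMSO down to 6.18 CPM in XY 24 h FGFRi.

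Epcam, a surface protein of epithelia and of pluripotent and early germ cells, fell in both sexes by 72 h. It lies on chromosome 17 (87943407 to 87958557, plus strand). XX libraries had 376.3, 293.1, 268.0 and 308.8 CPM at 0 h, 181.1, 221.2, 151.1 and 204.3 CPM at 24 h, and 76.6, 54.2, 51.5 and 57.6 CPM at 72 h. XY libraries had 448.4, 394.8, 447.3 and 447.5 CPM at 0 h, 378.5, 259.4, 339.4 and 329.2 CPM at 24 h, and 98.02, 88.6, 93.9 and 86.9 CPM at 72 h. All libraries of a sex at 72 h lay below all its libraries at 0 h and at 24 h. From 0 h to 72 h Epcam fell 4.94-fold in XX (log2 -2.30, SE 0.13, FDR = 3.13e-17) and 4.64-fold in XY (log2 -2.22, SE 0.11, FDR = 1.26e-18). The XY FGFRi libraries, inside pool 2, fell 4.02-fold from 24 h to 72 h (FDR = 5.75e-17). At each time every XY DMSO or XY 0 h library was above every XX library of that time, by 1.43-fold at 0 h, 1.71-fold at 24 h and 1.52-fold at 72 h, of which none was called over 1.5-fold by limma treat (FDR = 1, 0.261 and 0.702) and all had an FDR under 0.05 with no fold threshold (2.14e-05, 4.40e-08 and 0.000175). Markers of mesonephric epithelium summed to 40.3 to 49.9 CPM in XX 0 h and 2.68 to 12.9 CPM in XX 72 h. In XY the sums were 20.0 to 31.2 CPM at 0 h and 35.2 to 45.7 CPM at 72 h in DMSO. Their part in the Epcam result was not tested.

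Of the claudins Cldn6 and Cldn7, which seal epithelial tight junctions, Cldn6 was called between the sexes without culture, and both had few counts by 72 h. Cldn6 (chromosome 17, 23898223 to 23901420, plus strand) was at 4.90, 12.7, 8.53 and 9.75 CPM in XX 0 h and at 1.32, 2.33, 1.78 and 1.18 CPM in XY 0 h. It was the gene of the 8 that was called between the sexes at 0 h, 5.0-fold lower in XY (log2 -2.32, SE 0.49, FDR = 0.0169). The call rests on 97 counts in XX and 17 in XY, and was lost without XY 0 h replicate 3 (FDR = 0.0618) or XY 0 h replicate 6 (FDR = 0.0843), and with no filter on low counts (FDR = 0.0598). Cldn7 (chromosome 11, 69852648 to 69858711, plus strand, overlapping the antisense gene Elp5, with strand used in the counting) was at 13.3, 8.50, 8.53 and 8.08 CPM in XX 0 h and 3.07, 5.45, 5.35 and 4.31 CPM in XY 0 h. These groups did not overlap either, and the log2 difference was -0.88 (SE 0.35, FDR = 1, with no fold threshold 0.0550). Both claudins passed the filter on low counts chiefly through XX 0 h and XX 24 h libraries, where they were high. Their calls against those groups are therefore not independent of that filter.

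At 72 h Cldn6 held 1 count over the 4 XX libraries and 2 counts over the 4 XY DMSO libraries. Against 0 h the ratio of summed counts, scaled to library size, was 65.9 in XX (95% exact interval 11.6 to 2631, counting error only) and 6.11 in XY (1.45 to 54.6). In the limma fit Cldn6 fell 24.1-fold in XX, which was called (FDR = 2.82e-06). In XY the fitted fall was 4.13-fold and was not called (FDR = 0.0863, by edgeR glmTreat 0.0471). Cldn7 fell 4.77-fold in XX (log2 -2.25, SE 0.52, FDR = 0.00373). In XY it went from 45 counts at 0 h to 3 counts at 72 h, a ratio of summed counts of 10.8 (3.46 to 54.3). Its fitted fall in XY was 8.90-fold (FDR = 0.000579). The 6 markers of mesonephric epithelium moved in part with the claudins: their sum was 40.3 to 49.9 CPM in XX 0 h, 20.0 to 31.2 CPM in XY 0 h and 2.68 to 12.9 CPM in XX 72 h, but 35.2 to 45.7 CPM in XY 72 h DMSO, where both claudins had their lowest XY means. At 0 h Krt18 had a mean of 32.0 CPM in XX and 15.7 CPM in XY, Krt8 of 7.60 and 3.63 CPM, Pax8 of 3.43 and 2.70 CPM, Krt19 of 1.72 and 2.93 CPM and Pax2 of 0.19 and 0.35 CPM, and Cdh16 was at 0 CPM in both. Their part in the claudin difference was not tested.

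Promoters are shown for the junction genes Epcam, Cldn6 and Cldn7, since all 3 fell from 0 h to 72 h in XX germ cells and RefSeq promoters were at hand for them. The windows run from 250 bases before to 50 bases after the transcription start, on build GRCm38.p6, which is not the build of the counts. Capitals mark CACCTG or its reverse complement CAGGTG, a form of the E-box to which repressors of Cdh1 are known to bind. This motif, looked for on both strands, was in 20.2% of the 32851 promoters of the table, and in 3 of the 6 windows found for 5 of the 9 genes. The window of Epcam is chr17:87635729-87636028, that of Cldn6 is chr17:23679115-23679414, and that of Cldn7, the downstream of its 2 starts, is chr11:69965171-69965470, all on the plus strand.
Epcam: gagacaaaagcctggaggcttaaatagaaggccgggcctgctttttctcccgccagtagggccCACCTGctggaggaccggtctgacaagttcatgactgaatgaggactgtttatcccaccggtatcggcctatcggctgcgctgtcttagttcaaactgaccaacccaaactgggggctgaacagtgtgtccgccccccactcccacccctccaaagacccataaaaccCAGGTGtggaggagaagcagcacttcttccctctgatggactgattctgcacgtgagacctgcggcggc
Cldn6: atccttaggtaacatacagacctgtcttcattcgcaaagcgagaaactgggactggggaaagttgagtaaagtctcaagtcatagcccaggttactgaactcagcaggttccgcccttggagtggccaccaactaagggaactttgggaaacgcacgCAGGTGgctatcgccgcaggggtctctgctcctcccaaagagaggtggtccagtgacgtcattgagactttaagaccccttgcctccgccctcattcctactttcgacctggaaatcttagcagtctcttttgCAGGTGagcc
Cldn7: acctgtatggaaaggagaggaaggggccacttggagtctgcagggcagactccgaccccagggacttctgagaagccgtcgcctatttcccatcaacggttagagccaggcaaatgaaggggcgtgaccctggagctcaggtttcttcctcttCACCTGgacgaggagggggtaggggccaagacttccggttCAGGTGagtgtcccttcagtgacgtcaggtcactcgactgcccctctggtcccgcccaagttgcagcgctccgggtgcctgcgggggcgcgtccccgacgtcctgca
Each of these windows holds the motif 2 times, while the other window of Cldn7 and the windows of Itgb1 and Cxcr4 do not hold it. A match describes the letters and was not tied to the counts by any test.

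Pecam1 (chromosome 11, 106543689 to 106641454, minus strand) fell to low levels in every 72 h group. XX libraries had 100, 107.0, 113.3 and 126.5 CPM at 0 h, 98.6, 96.0, 58.5 and 108.2 CPM at 24 h, and 4.28, 4.65, 7.36 and 9.06 CPM at 72 h. XY libraries had 109.7, 96.0, 93.6 and 101.5 CPM at 0 h, 60.7, 29.7, 93.5 and 62.8 CPM at 24 h, and 5.37, 6.69, 9.32 and 6.63 CPM at 72 h. The highest 72 h DMSO library of either sex was far below the lowest library of an earlier time. From 0 h to 72 h Pecam1 fell 18.5-fold in XX (log2 -4.21, SE 0.39, FDR = 1.22e-11) and 14.4-fold in XY (log2 -3.85, SE 0.34, FDR = 5.97e-12). Within pool 2 the XY FGFRi libraries fell 7.03-fold from 24 h to 72 h (FDR = 4.98e-09), and leaving out any library kept each of these calls. Pecam1 was not called between the sexes at any time, with log2 differences for XY less XX of -0.19 (95% interval -0.48 to 0.09) at 0 h, -0.61 (-0.95 to -0.27) at 24 h and 0.17 (-0.83 to 1.17) at 72 h. With no fold threshold the FDR at 24 h was 0.00285.

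Pecam1 is also an endothelial gene, so its level was set beside 10 other endothelial markers. Their sum ran from 18.7 to 23.2 CPM in XX 0 h and from 11.4 to 15.5 CPM in XX 72 h. In XY germ cells the sum ran from 27.4 to 42.6 CPM at 0 h and from 67.7 to 83.7 CPM at 72 h in DMSO. The part of these cells in the Pecam1 result was not tested. Egfl7 made up most of it, at 51.5 CPM in XY 72 h DMSO, with Cdh5 at 9.72, Kdr at 1.34, Tek at 0.92 and Tie1 at 4.32 CPM. Of the 10 markers 3 were tested, and Cdh5 and Egfl7 rose in XY from 0 h to 72 h, as the plot of Pecam1 beside endothelial markers shows.

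The integrin subunits did not move together. Itga6 (chromosome 2, 71575960 to 71689757, plus strand), whose product pairs with integrin β1 or β4 to bind laminin, rose in culture. XX libraries had 23.8, 25.9, 29.5 and 32.1 CPM at 0 h, 67.2, 40.7, 38.7 and 37.9 CPM at 24 h, and 122.6, 113.1, 113.7 and 75.1 CPM at 72 h. XY libraries had 21.1, 32.7, 33.0 and 44.7 CPM at 0 h, 94.9, 79.2, 78.4 and 95.5 CPM at 24 h, and 62.7, 62.3, 67.2 and 66.4 CPM at 72 h. In XY every 24 h library was above every library of 0 h and of 72 h, whereas in XX every 72 h library was above every earlier one. Itga6 rose 2.73-fold in XY from 0 h to 24 h (log2 1.45, SE 0.18, FDR = 0.000468). In XX it was 1.56-fold higher at 24 h (log2 0.64, FDR = 1) and rose 3.53-fold by 72 h (log2 1.82, SE 0.18, FDR = 2.90e-08). XY at 72 h was 1.97-fold above XY at 0 h, just outside the call by limma treat (log2 0.98, SE 0.18, FDR = 0.0508) and called by edgeR glmTreat (FDR = 0.0168). XY was thus 1.97-fold above XX at 24 h (log2 0.98, SE 0.17, FDR = 0.107) and 1.59-fold below it at 72 h (log2 -0.67, SE 0.16, FDR = 0.513), with groups that did not overlap at either time and neither difference called over 1.5-fold by limma treat. Without XX 24 h replicate 4, which had 67.2 CPM, the 24 h difference was called (log2 1.18, FDR = 0.0176). Over the 8 genes the change in the sex difference from 0 h to 72 h gave 0 calls by limma treat (28.9% of all genes), 1 at an unadjusted p under 0.05 and 0 by edgeR glmTreat, and for Itga6 it was -0.84 (SE 0.26, FDR = 0.339).

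Itgb1 (chromosome 8, 129411876 to 129460618, plus strand), the β subunit shared by many integrins, was called in 0 of the 19 comparisons by limma treat, and in 1, XX at 72 h against 0 h, at an unadjusted p under 0.05 and by edgeR glmTreat (FDR = 0.0311). Its mean ran from 53.9 CPM in XY 24 h FGFRi to 108.9 CPM in XX 0 h, and each group overlapped the next in that order. The change nearest to a call was in XX from 0 h (120.3, 96.9, 100.5 and 117.9 CPM) to 72 h (55.1, 65.6, 72.3 and 48.5 CPM). These libraries did not overlap, and the log2 difference was -0.89 (SE 0.15, FDR = 0.0579). At 24 h Itgb1 was at 106.7, 86.5, 85.2 and 88.2 CPM in XX and 47.2, 33.3, 66.0 and 72.0 CPM in XY, 1.58-fold lower in XY (log2 -0.66, SE 0.15, FDR = 1, with no fold threshold 0.000308).

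Cxcr4 (chromosome 1, 128515936 to 128520044, minus strand), the receptor for the CXCL12 cue of migration, was scarce and was highest before culture. Its 165 counts over all libraries left it out of the test across genes. It was at 4.20, 5.41, 4.66 and 4.18 CPM in XX 0 h and 5.26, 5.71, 3.56 and 4.31 CPM in XY 0 h, and the highest of the 32 cultured libraries had 3.19 CPM. XX 24 h libraries had 1.56, 0, 0.50 and 1.60 CPM and XY 24 h DMSO libraries 1.04, 2.60, 1.03 and 0.27 CPM, so neither group overlapped its 0 h group. By exact two-sided permutation of 4 against 4 libraries each of the 4 DMSO groups differed from 0 h of its sex at p = 0.0286, the smallest p that 70 regroupings allow, and over 16 comparisons the Benjamini-Hochberg adjusted p was 0.114. The ratio of summed counts of XX 0 h to XX 72 h, scaled to library size, was 15.97 (95% exact interval 4.18 to 136), from 47 and 2 counts. In XY the mean was 3.63-fold lower at 72 h in DMSO (1.30 CPM) than at 0 h (4.71 CPM), from 10 and 49 counts. The XX 72 h DMSO mean was 0.33 CPM. Between the sexes the exact permutation p was 0.914 at 0 h, 0.657 at 24 h and 0.257 at 72 h.

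For neither inhibitor was any of the 8 tested genes called in XY germ cells. By limma treat 0 of 8 were called for FGFRi at 24 h (0.262% of all genes), MEKi at 24 h (0.164%), FGFRi at 72 h (0.00656%) and MEKi at 72 h (9.12%). At an unadjusted p under 0.05 the counts were 0, 0, 0 and 1, and edgeR glmTreat and DESeq2 at the same fold called 0 in all 4. With no fold threshold limma called 0, 1, 0 and 2 of the 8 (6.33%, 5.89%, 1.08% and 45.8% of all genes), namely Itga6 for MEKi at 24 h and Pecam1 and Itgb1 for MEKi at 72 h. The plot of inhibitor effects gives the 95% intervals, which were within 1.5-fold either way for Epcam in all 4 comparisons but reached beyond it for Cldn6 and Cldn7 in all 4.

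**Figure D3:**
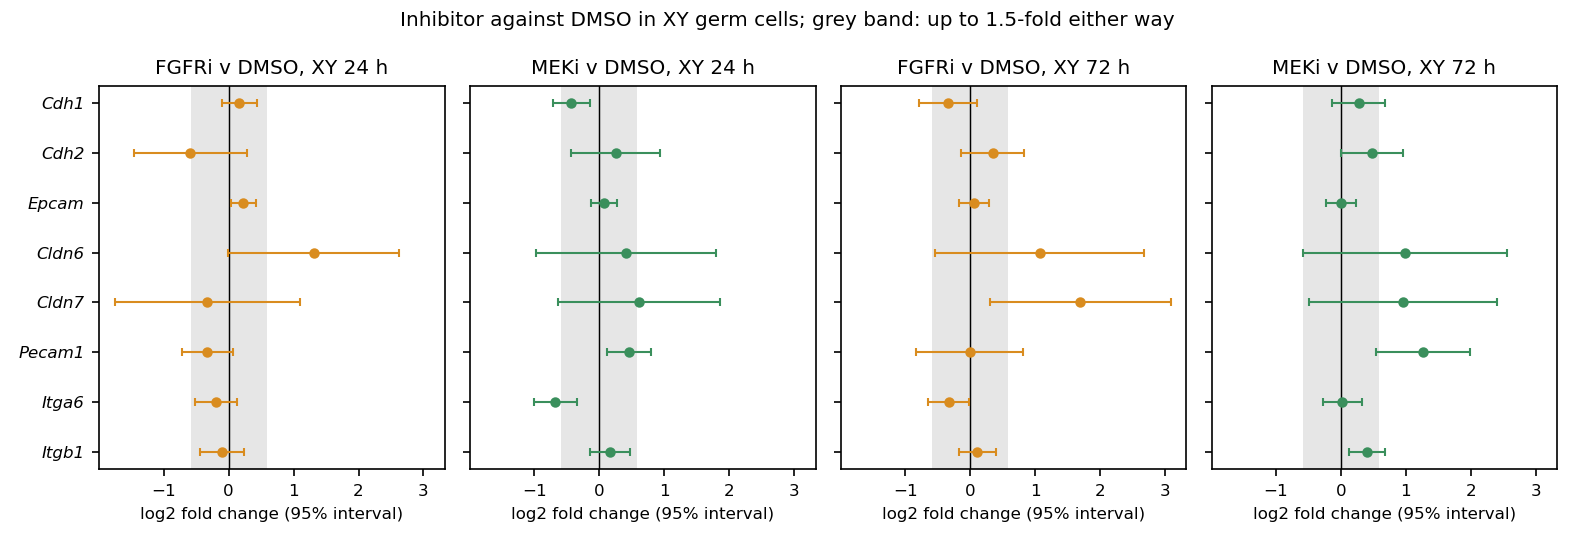
Log2 fold change of inhibitor over DMSO in XY germ cells for the 8 tested genes, with 95% intervals from limma, in 4 panels for FGFRi (orange) and MEKi (green) at 24 h and 72 h; the grey band spans changes of up to 1.5-fold. Intervals of Epcam lie inside the band in every panel, and Pecam1 with MEKi at 72 h is at 1.26 with an interval of 0.54 to 1.99.

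Pecam1 gave the value nearest to a call at 72 h. With MEKi the 4 libraries had 9.43, 17.7, 21.4 and 10.2 CPM, with DMSO 5.37, 6.69, 9.32 and 6.63 CPM, and with FGFRi 7.45, 7.32, 5.03 and 5.60 CPM. At 72 h 2 of the 8 genes had MEKi libraries that did not overlap those of DMSO (38.3% of all genes), and 2 those of FGFRi (43.3%). Between FGFRi and DMSO at 72 h 1 did not overlap (6.71%), namely Itga6, at 39.7 to 57.2 CPM with FGFRi and 62.3 to 67.2 CPM with DMSO (log2 -0.33). For Pecam1 all MEKi libraries were above all libraries of the other 72 h groups, XX included, although the lowest MEKi library was above the highest DMSO library by only a small step. The log2 difference from DMSO was 1.26 (SE 0.36, FDR = 0.221, with no fold threshold 0.00339) and that from FGFRi was 1.27 (SE 0.30, FDR = 0.0889, with no fold threshold 0.000345). In the comparison of MEKi with FGFRi 12.7% of all genes and 0 of the 8 were called by limma treat, with 1 at an unadjusted p under 0.05 and 1, Pecam1, by edgeR glmTreat (FDR = 0.0153). Leaving out MEKi replicate 2 or replicate 5, the lower of the 4 libraries, brought Pecam1 to a call against FGFRi (FDR = 0.0329 and 0.0385). The 10 endothelial markers summed to 24.3 to 38.8 CPM with MEKi and 67.7 to 83.7 CPM with DMSO, and Cdh5 and Egfl7 were lower with MEKi, and their part in the Pecam1 result was not tested. Compared with XX 72 h DMSO germ cells, MEKi-treated XY germ cells had 0 of 8 called (30.0% of all genes), 1 at an unadjusted p under 0.05 and 1, Pecam1, by edgeR glmTreat (FDR = 0.0102).

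At 24 h the MEKi value with the lowest FDR under no fold threshold was that of Itga6. Blood markers summed to 211 to 538 CPM in the 4 MEKi libraries and 39.5 to 143 CPM in DMSO at 24 h. Interstitial and steroidogenic markers summed to 82.1 to 107.4 against 41.4 to 64.6 CPM, and endothelial markers to 25.5 to 36.1 against 17.9 to 24.5 CPM. Their part in these values was not tested. MEKi libraries had 50.2, 80.2, 48.2 and 54.2 CPM and DMSO libraries 94.9, 79.2, 78.4 and 95.5 CPM, so 3 of 4 MEKi libraries were below all DMSO libraries. The log2 difference was -0.68 (SE 0.16, FDR = 1, with no fold threshold 0.00643). Cdh1 with MEKi was at 74.3, 83.9, 77.8 and 71.7 CPM, which overlapped DMSO (log2 -0.43, SE 0.14, 95% interval -0.71 to -0.15), and Cdh2 was at 6.97, 10.1, 17.99 and 10.4 CPM (log2 0.25, 95% interval -0.44 to 0.94). MEKi at 72 h left Cdh1 at 23.3, 31.5, 27.0 and 17.6 CPM and Cdh2 at 27.3, 19.0, 26.2 and 18.4 CPM, with log2 differences from DMSO of 0.28 (95% interval -0.14 to 0.69) and 0.48 (0.01 to 0.95). Itgb1 at 72 h was at 74.9, 94.4, 80.9 and 81.5 CPM with MEKi and 57.7, 64.8, 62.6 and 68.3 CPM with DMSO, without overlap and with a fitted fold of 1.32 (log2 0.40, SE 0.14, FDR = 1, with no fold threshold 0.0119). When the effect of MEKi at 24 h was subtracted from that at 72 h, 0 of 8 were called by limma treat (1.89% of all genes), with 0 at an unadjusted p under 0.05 and 0 by edgeR glmTreat. FGFRi at 24 h left Cdh2 at 4.34, 4.07, 12.6 and 3.69 CPM (log2 -0.59, 95% interval -1.46 to 0.28) and Pecam1 at 35.6, 61.9, 49.4 and 47.5 CPM (log2 -0.33, 95% interval -0.72 to 0.06), where drug and pool cannot be told apart.

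The wider adhesion and migration list held 101 other genes, of which 75 were tested. Without culture 6 were higher and 4 lower in XY than XX germ cells, 13.3% of the 75 against 3.0% of all genes, with a median log2 difference of 0.12 against 0.03 over all genes. The largest were Tspan8 (2.80), the integrin activator Fermt1 (2.62) and the basement membrane linker Nid1 (2.46) upward, and the laminin chains Lama1 (-2.47) and Lamb2 (-2.41) and the WNT5A receptor Ror2 (-1.87) downward. At 0 h marker sums of other cells were apart in both directions. They were higher in XY than XX, at 116.2 to 295 against 38.2 to 79.0 CPM for interstitial and steroidogenic cells, 56.8 to 385.9 against 32.2 to 51.2 CPM for blood and 27.4 to 42.6 against 18.7 to 23.2 CPM for endothelium. For mesonephric epithelium the sum was lower in XY (20.0 to 31.2 against 40.3 to 49.9 CPM), and for supporting cells the sexes overlapped (19.3 to 36.5 and 12.3 to 25.9 CPM). Their part in these counts was not tested. At 24 h 4 were higher and 5 lower in XY, namely 12.0% against 9.99%, with Tspan8 (2.71), P-cadherin Cdh3 (1.54) and the junctional adhesion molecule F11r (1.45) upward, and Lamb2 (-2.69), Parva (-2.36) and Lama1 (-2.21) downward. Cdh3 had a mean of 78.5 CPM in the XY libraries and 26.7 CPM in the XX libraries. Supporting cell markers summed to 20.6 to 95.4 CPM in XY and 7.98 to 16.2 CPM in XX at 24 h, with 1 of the 6 tested called higher in XY, while the sums of the other 4 lists for other cells overlapped. Germ cell markers summed to 3357 to 4778 CPM in XY and 2627 to 3229 CPM in XX at 24 h, and to 2997 to 3459 CPM and 2089 to 2371 CPM at 72 h. Their part in these counts was not tested. At 72 h 24 were higher and 9 lower in XY, 44.0% of 75 against 41.0% of all genes.

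Among the tight junction partners 6 of 8 were higher in XY than XX at 72 h and 0 were lower (22.8% and 18.1% of all genes), with a median log2 difference of 1.72 over the 8 tested against 0.10 over all genes. Marveld2 had a mean of 21.4 CPM in XY libraries and 1.69 CPM in XX libraries (log2 3.8), and occludin (Ocln) of 9.72 and 0.95 CPM (3.44). Markers of mesonephric epithelium summed to 35.2 to 45.7 CPM in XY and 2.68 to 12.9 CPM in XX at 72 h, with 2 of the 3 tested called higher in XY. Endothelial markers summed to 67.7 to 83.7 CPM in XY and 11.4 to 15.5 CPM in XX, with 2 of the 3 tested called higher in XY. Their part in these genes was not tested. The largest of the whole list were Tspan8 (5.05), Cdh15 (4.94) and Itgb4 (4.23) upward, and Kitl (-3.72), Lamb2 (-3.62) and Lama2 (-2.84) downward. Of the supporting cell markers, whose sums at 72 h are given above beside Cdh2, 2 of the 6 tested were called lower in XY. Their part in the genes that were lower was not tested. Itgb4 encodes a partner of integrin α6 and was at 9.17 CPM in XY 72 h DMSO, 0.46 CPM in XX 72 h DMSO and 0.87 CPM in XY 0 h. The laminin chain Lamb2 had a mean of 136.7 CPM in XX libraries and 10.3 CPM in XY libraries.

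Over time in XX germ cells 1 of the 75 was higher and 3 were lower at 24 h against 0 h (5.33% against 3.23% of all genes), with Jam3 (1.41) upward and Itga1 (-1.91), Jam2 (-1.53) and the nectin Nectin2 (-1.50) downward. At 72 h against 0 h 12 were higher and 19 lower (41.3% against 37.2%), led by the laminin chains Lama2 (4.43) and Lama4 (3.45) and the adhesion molecule Alcam (3.25) upward and by Itgb3 (-3.95), the protease St14 (-3.90) and Ror2 (-3.78) downward. In XY germ cells 0 were higher and 3 lower at 24 h against 0 h (4.00% against 2.94%), namely Fermt1 (-2.93), St14 (-2.73) and Itga1 (-2.42). At 72 h against 0 h 18 were higher and 15 lower in XY (44.0% against 35.5%), led by L1cam (4.58), Itgb4 (3.57) and Cldn18 (3.47) upward and by Fermt1 (-3.74), Cdh3 (-3.05) and Icam1 (-2.74) downward. Kit, the receptor that primordial germ cells need to survive and migrate, fell in both sexes, from 137.0 to 25.9 CPM in XX and from 125.2 to 26.0 CPM in XY. Marker sums of other cells moved as well. In XX from 0 h to 72 h they went without overlap from 12.3 to 25.9 up to 42.3 to 74.9 CPM for supporting cells and from 38.2 to 79.0 up to 103.2 to 169.7 CPM for interstitial and steroidogenic cells. They went down to 2.68 to 12.9 CPM for mesonephric epithelium, 11.4 to 15.5 CPM for endothelium and 20.1 to 31.6 CPM for blood, from the 0 h values above. In XY at 72 h the sums for endothelium (67.7 to 83.7 CPM) and mesonephric epithelium (35.2 to 45.7 CPM) lay above those at 0 h, and the others overlapped. At 24 h the sum for mesonephric epithelium lay below that at 0 h in XX (11.2 to 24.6 CPM) and in XY (9.28 to 17.2 CPM), as did those for interstitial cells (41.4 to 64.6 CPM) and endothelium (17.9 to 24.5 CPM) in XY. The part of these cells in the time comparisons was not tested.

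With the inhibitors limma treat called 0 of the 75 for FGFRi at 24 h (0.262% of all genes), MEKi at 24 h (0.164%) and FGFRi at 72 h (0.00656%), with 4, 3 and 1 at an unadjusted p under 0.05. MEKi at 72 h called 1 higher and 9 lower, 13.3% of 75 against 9.12% of all genes. The gene that rose was Icam1 (log2 2.13, 9.53 CPM against 2.11 CPM in DMSO), and those that fell the most were Marveld3 (-3.11), L1cam (-2.63) and Tspan8 (-2.53). Of the 8 tight junction partners 3 fell (Marveld3, Marveld2 and Cgn), where 5.11% of all genes fell, and Cldn18 and Itgb4 fell as well (-1.97 and -2.19). The 6 markers of mesonephric epithelium summed to 5.46 to 11.4 CPM with MEKi and 35.2 to 45.7 CPM with DMSO, with Pax8, Krt8 and Krt18 lower with MEKi, and their part in the junction genes was not tested.

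Among themselves, Cdh1 and Epcam were the most correlated over the 40 libraries (Pearson r of log2 CPM 0.94), followed by Epcam and Pecam1 (0.88) and Cdh1 and Pecam1 (0.82). Cdh1 and Cdh2 ran against each other (-0.75). Among all tested genes those most like Cdh1 were Gspt1 (0.96), Cdh3 (0.96) and Zfp42 (0.95), those most like Epcam were Zfp42, Tet1 and Mrpl15 (all 0.97), and those most like Pecam1 were Zscan10, Iqgap1 (both 0.96) and Clpp (0.95). Fuca2 (0.82) and Zfp711 (0.81) were near Cdh2, after a gene with no symbol in the annotation (0.87), Gli3 (0.88), Gm37399 (0.85) and Ptprk (0.82) were near Itgb1, and Mcoln1, Appl1 and Nsd1 (all 0.80) were near Itga6. Cldn6 was nearest to Phf19 (0.82), Cox7a1 (0.81) and Fbxo6 (0.80), and Cldn7 to Gm31659 (0.82), Rhox9 (0.80) and Ldoc1 (0.80). These libraries share groups, culture times and pools, so they are given as a description, with no test.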

How the data were processed

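Germ cells were sorted from pooled gonads and sequenced as libraries primed at the poly(A) tail. The authors aligned reads to GRCm39, collapsed molecular identifiers and deposited counts per gene, with strand used. The GENCODE release is not given in the sources used here. The submitters' processing notes name limma, edgeR and GRCm39. Unversioned Ensembl identifiers were matched to GENCODE M39, and 2031 of 42422 genes had no match (1.05% of counts). The 9 genes and the gene lists were chosen with earlier results of these data known.

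Genes were kept by filterByExpr in edgeR 4.0.16 (minimum count 10, minimum total 15), which kept 15252 genes with 99.2% of counts. TMM scaling and voom with sample quality weights preceded 1 fit of the 10 group means over 40 libraries in limma 3.58.1 (R 4.3.3). Differences over 1.5-fold were tested with treat, with Benjamini-Hochberg adjustment over all 15252 genes, and FDR values are from this test unless a tool is named. Intervals are 95% intervals of the log2 fold change. Values with no fold threshold are from eBayes. CPM values are means of 4 libraries where 1 value is given for a group. DESeq2 1.42.0 and edgeR were alternatives. Correlations used log2 CPM with a prior count of 2. Ratios of genes with few counts have exact binomial intervals, which cover counting error only. Cxcr4 was tested by exact permutation. Nothing says that libraries of a group come from separate litters, so p-values measure the spread between these libraries. Genes named from the wider list were the 3 called in each direction with the largest fold change, with members of its subgroups that are described beside them and Kit, which were picked after their values were seen.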

Additional observations from a re-analysis of the deposited data

Results flagged for a closer look

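In 90 sets of 4 libraries (9 genes in 10 groups) 9 had a library that stood apart by Dixon's test, which chance gives in about 1 of 20 sets of normally spread values. Cdh2 was at 12.6 CPM in replicate 4 of XY 24 h FGFRi, with the others at 3.69 to 4.34 CPM. Epcam was at 394.8 CPM in replicate 3 of XY 0 h, below the others at 447.3 to 448.4 CPM. Cldn7 was at 13.3 CPM in replicate 2 of XX 0 h (others 8.08 to 8.53 CPM) and at 3.10 CPM in replicate 4 of XX 72 h DMSO (others 1.07 to 1.34 CPM). In replicate 4 of XX 24 h DMSO, Itga6 was at 67.2 CPM (others 37.9 to 40.7 CPM) and Itgb1 at 106.7 CPM (others 85.2 to 88.2 CPM), so this library stood apart for both integrin subunits. The 3 remaining cases were single libraries with few counts where the others had 0: Cldn6 at 0.535 CPM in replicate 11 of XX 72 h DMSO, and Cxcr4 at 1.58 CPM in replicate 5 of XY 24 h FGFRi and at 1.34 CPM in replicate 7 of XX 72 h DMSO. In such sets any count in a single library passes the test, so the rate of 1 in 20 does not apply to them.

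The sex difference of Cdh1 was 1.47 larger on the log2 scale at 24 h than at 0 h, by the interaction test in limma treat (FDR = 0.0264). Of 27 alternatives tried for it, 9 did not call it (FDR of up to 0.22).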

How the results depend on the processing

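Of 29 called values of the 8 genes, 21 kept their call in all 19 to 27 other settings tried for each, and 0 of the values reversed. Counts of the 8 genes called moved by over 1.5 times in these settings. With no filter on low counts they were 0 for XY against XX at 0 h, 1 for XX at 24 h against 0 h, 0 for the change in sex difference by 24 h and 1 for that by 72 h. Over all genes that setting called 386, 429, 76 and 4540, in that order. With no fold threshold limma and edgeR quasi-likelihood gave 4 and 2 for the sexes at 0 h, 8 in both at 24 h and 5 in both at 72 h. There limma passed 24.2%, 38.8% and 67.4% of all genes, and edgeR 2912, 6195 and 10303 of 15252 genes. These tests gave 5 in both for XY at 24 h against 0 h, 7 in both at 72 h against 0 h, 5 and 6 at 72 h against 24 h, 4 in both for XX at 24 h against 0 h and 7 in both at 72 h against 24 h. In that order limma passed 24.8%, 65.7%, 59.2%, 30.0% and 54.3% of all genes, and edgeR 3421, 9736, 8791, 4669 and 8411 genes. The same tests gave 1 in both for MEKi at 24 h, 2 in both for MEKi at 72 h, 4 and 2 for MEKi against FGFRi, 5 in both for XY MEKi against XX, 3 and 2 for the change in sex difference by 24 h, 2 and 1 by 72 h, and in limma 2 for the change in MEKi effect. In that order limma passed 5.89%, 45.8%, 52.1%, 62.7%, 9.88%, 54.0% and 23.2% of all genes. For the first 6 of these edgeR passed 853, 6252, 7062, 9297, 1500 and 7766 genes. edgeR glmTreat gave 4 for the sexes at 24 h, 1 for MEKi against FGFRi, 1 for XY MEKi against XX and 2 for the change in sex difference by 24 h, and, within 1.5 times, 6 for XY at 72 h against 0 h (Itga6 and Cldn6 added), 8 and 5 for XX at 72 h against 0 h and 24 h, and 5 for XY FGFRi at 72 h against 24 h. Over all genes it called 2360, 2399, 5484, 177, 6204, 6608, 4468 and 5921, in that order. DESeq2 gave 1 for XX at 24 h against 0 h, and scaling by library size alone gave 2 for XY MEKi against XX and 0 for the change in sex difference by 24 h. Over all genes these called 540, 4853 and 57. The cause was not tested. Replicate numbers did not pair the libraries (correlations of deviations of same-numbered libraries were not all over 0.1 in any comparison with 3 or more pairs), and a fit with the replicate block gave 0 for the sexes at 0 h, 1 at 72 h, 1 for XX at 24 h against 0 h, 2 for XX at 72 h against 24 h, 1 for MEKi against FGFRi and 0 for the change in sex difference by 24 h, and 5 for XX at 72 h against 0 h, without Cdh2 and Cldn7 (log2 -1.20, FDR = 0.552). Over all genes that fit called 322, 3888, 234, 1127, 1037, 50 and 3384, in that order. Leaving out 1 library at a time gave 0 to 1 for the sexes at 0 h, 2 to 4 at 24 h (4 without XX 24 h replicate 4) and 0 to 1 at 72 h (1 without XY 72 h replicate 5), 1 to 1, 4 to 5 and 3 to 3 for the XY time comparisons, 1 to 2, 6 to 8 and 4 to 5 for the XX ones, 0 to 0 for each inhibitor against DMSO, 0 to 1 for MEKi against FGFRi and for XY MEKi against XX (1 without MEKi replicate 2 or 5), 0 to 1 for the change in sex difference by 24 h, and 0 to 0 by 72 h and for the change in MEKi effect. Over all genes the block moved calls from 3393 to 1127 for XX at 72 h against 24 h, and glmTreat from 493 to 1101 for XX at 24 h against 0 h; taking out counts tied to a shared sample index moved the change in sex difference by 24 h from 69 to 212. Depth limited Cldn6, Cldn7 and Cxcr4, with 265, 287 and 165 counts in all.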
